A study of Mus musculus with 24 samples.

Results

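Wild-type LSK cells were set against wild-type myeloid progenitors. The comparison took 12 of the 24 arrays of the series, chosen by the genotype, the sorted population and the mouse on the labels: 6 arrays of LSK cells from mice 1 and 3 and 6 arrays of myeloid progenitors from mice 5 and 6. Of the 8 mice of the series, 4 thus entered, each with 3 arrays, and no mouse gave both populations. All 17741 genes named on the array were members of the comparison.

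The series compared blood-forming cells of BAP1-deficient mice with those of controls; BAP1 is a deubiquitinase of the nucleus that acts on histone H2A. All mice were C57BL/6, and per the labels they received tamoxifen, the agent that was to delete Bap1 in the whole body. The groups used here carry a wild-type genotype label (WT), so tamoxifen is shared by both populations. The labels give no age, no sex, no Cre driver and no untreated group. LSK cells were sorted from bone marrow as lineage-negative, Sca1-positive and Kit-positive, and myeloid progenitors as lineage-negative, Sca1-negative and Kit-positive.

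LSK cells hold the hematopoietic stem cells together with multipotent progenitors, and they can form every blood lineage. Myeloid progenitors lie downstream and are a mixture of cells on the way to red cells, platelets, granulocytes and monocytes. Stem cells are known to divide rarely, to keep a set of transcription factors such as Mecom, Hlf and Meis1 active, and to carry little RNA of mature lineages.

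A level below is the mean of the log2 values of a mouse's 3 arrays, and a difference is the mean of the LSK mice minus the mean of the progenitor mice, with its standard error (SE) and n = 2 mice per population. Genes were tested with limma, and "called" means a two-sided p, adjusted by Benjamini-Hochberg over 22439 probes, below 0.05. With 2 mice against 2, an exact permutation test of a single gene cannot go below p = 0.333, so the calls rest on a spread pooled over mice and genes. Each mouse was also left out in turn, and the values in parentheses beside a lost call are the differences in the fits that lost it. The labels do not say whether the mice were handled as separate preparations, and p-values measure only the spread between these samples. In mixed populations, fewer cells of a type and less RNA per cell cannot be told apart.

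Arrays of the same WT mouse correlated over probes with a median r of 0.9953 (12 pairs), arrays of different mice of a population with 0.9874 (18 pairs) and arrays of different populations with 0.9628 (36 pairs). Kit, which the sort used, stood at 13.48 and 12.89 in LSK cells and at 12.96 and 12.97 in progenitors, a difference of 0.22 ± 0.21 (limma adjusted p = 0.571). Sca1 was not measured here. Of 6 measured genes of the depleted lineages, Cd3e, Cd4, Cd8a, Ptprc and Itgam were not called, and Cd5 differed by 0.44 ± 0.08 at levels near the low end. Bap1 stood at 11.55 and 11.45 in LSK cells and at 11.54 and 11.59 in progenitors (-0.06 ± 0.18, limma adjusted p = 0.877). The Y-linked gene Kdm5d stood at 7.88 in mouse 1 and 8.15 in mouse 5, against 6.00 in mouse 3 and 5.94 in mouse 6, so 1 mouse of each population carried this signal. Labels number the arrays over the whole series, 1 to 12 for LSK cells and 13 to 24 for progenitors. Whether this label number marks an order of hybridisation is not stated. Any effect that follows it cannot be told apart from population.

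Limma called 2403 of 17741 genes (13.5%), of which 1434 were higher in LSK cells (8.08%) and 969 lower (5.46%). By at least 2-fold, 751 were higher and 427 lower, and by at least 8-fold 36 and 8. In each of the 2403 genes both mice of one population lay above both mice of the other, which was also so for 10150 of all 17741 genes. The median absolute difference was 0.19 between the populations, 0.12 between the LSK mice and 0.14 between the progenitor mice. Of the called genes that were higher in LSK cells, 279 had a progenitor mean under 6.5, and of the lower ones 108 had an LSK mean under 6.5. This lies near the low end of the arrays (lowest value 5.66), where a difference is best read as a minimum. The call count was 1077 without mouse 1, 1731 without mouse 3, 1432 without mouse 5 and 1691 without mouse 6. Without both mice with a Kdm5d signal, 617 genes were called, 421 higher and 196 lower. Mouse 1 lay farther from the progenitors than mouse 3 in 1055 of the 1434 higher genes and in 606 of the 969 lower ones.

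The 15 largest differences upward held stem cell regulators beside genes that respond to stimulation. Mecom, a zinc-finger transcription factor that stem cells need, stood at 13.09 and 13.03 in the LSK mice and at 8.72 and 8.76 in the progenitor mice. The populations were 4.32 ± 0.26 apart (19.9-fold, limma adjusted p = 2.79e-05), many times the spread between mice. A second probe of Mecom differed by -0.18 ± 0.18 and was not called (limma adjusted p = 0.583), and the mean of its probes by 2.07. Hlf, a leucine zipper factor of stem cells, stood at 14.59 and 14.34 against 10.85 and 10.31 (3.88 ± 0.23). Fgd5, a guanine nucleotide exchange factor used to mark stem cells, stood at 10.77 and 10.41 against 6.98 and 6.59 (3.81 ± 0.24). In all of these the mice of a population lay close together. Slc16a11, a member of the monocarboxylate transporter family, differed by 4.33 ± 0.34, the adhesion receptor gene Robo4 by 3.72 ± 0.33, the growth suppressor Ndn by 3.68 ± 0.30, Bdh2 by 3.67 ± 0.24 and the lymphotoxin gene Ltb by 3.60 ± 0.29. The chemokine gene Ccl4 differed by 4.36 ± 0.62. A second probe of Bdh2 differed by 0.29 (limma adjusted p = 0.193), and the mean of its probes by 1.98. By their brightest probes these 9 genes were called in every fit that left out 1 mouse.

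Jchain, which joins the chains of secreted antibodies, had the largest difference of all. It stood at 12.68 and 12.69 in LSK cells and at 7.34 and 5.98 in progenitors, 6.03 ± 0.95 apart (limma adjusted p = 0.0214). A second probe of Jchain differed by 3.76 ± 0.41. The call of Jchain was lost without mouse 1, 3, 6, 7 or 8 (5.34 to 6.03, with an adjusted p of at most 0.152). Lig3, a DNA ligase, stood at 11.78 and 11.87 against 7.79 and 7.75, with no overlap and little spread within a population. Its difference of 4.06 ± 0.58 lost the call without mouse 1 (4.10). The call was also lost in limma fits of single arrays that took mice as random blocks (adjusted p = 0.211). With replicate numbers within mice blocked too, the limma adjusted p was 0.201. The remaining 4 of the 15, Fosb, Fos, Nr4a1 and Egr1, are immediate early genes and are described with that list.

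**Figure D1:**
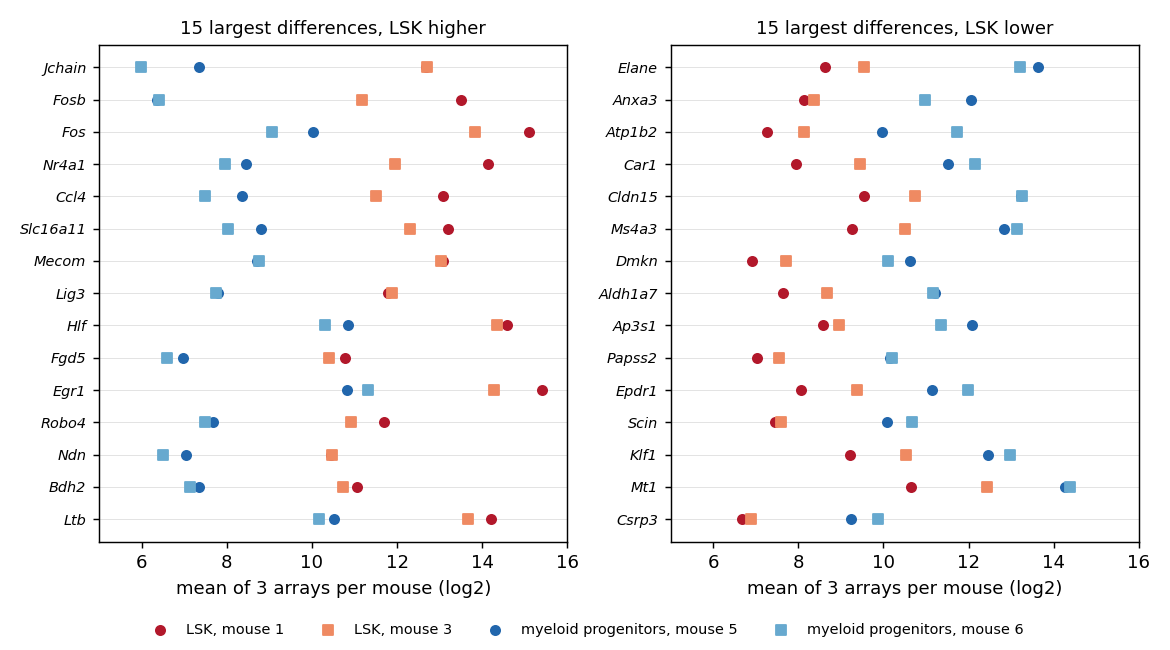
Levels (log2, mean of 3 arrays) of the 15 genes with the largest differences upward (left) and downward (right) among called genes, 1 point per mouse. Red points are LSK mice and blue points progenitor mice; they do not overlap in any of these genes, and mouse 1 lies left of mouse 3 in every gene of the right panel.

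Downward, the largest difference was that of Elane, the neutrophil elastase of primary granules. It stood at 8.63 and 9.54 in LSK cells and at 13.63 and 13.20 in progenitors, a difference of -4.33 ± 0.39 (20.1-fold lower, limma adjusted p = 0.000283). Ms4a3, a surface protein of granulocyte and monocyte progenitors, stood at 9.27 and 10.51 against 12.84 and 13.13 (-3.09 ± 0.46). In both genes the progenitor mice were closer to each other than the LSK mice were. Car1, the carbonic anhydrase of early red cell precursors, stood at 7.95 and 9.46 against 11.51 and 12.14 (-3.12 ± 0.55), and Klf1, the master transcription factor of the red cell lineage, at 9.21 and 10.53 against 12.46 and 12.97 (-2.84 ± 0.42). The phospholipid-binding Anxa3 differed by -3.26 ± 0.40, the claudin Cldn15 by -3.09 ± 0.40, the dehydrogenase Aldh1a7 by -3.03 ± 0.30, Ap3s1 by -2.94 ± 0.28, the sulfate-donor enzyme Papss2 by -2.87 ± 0.21, the actin-severing Scin by -2.85 ± 0.22 and Csrp3 by -2.77 ± 0.24. The remaining members of the 15 were Atp1b2 (-3.15 ± 0.68), Dmkn (-3.06 ± 0.62), Epdr1 (-2.86 ± 0.51) and the metallothionein Mt1 (-2.79 ± 0.54). The other probes of Car1 differed by -3.15 and -0.0011. Car1 lost its call without mouse 6 (-2.80), as did Epdr1 (-2.44). Atp1b2 lost it without mouse 1, 2, 3 or 4 (-2.71 to -3.59), Dmkn without mouse 1, 3, 5 or 6 (-2.66 to -3.45) and Mt1 without mouse 2, 4, 5, 6, 7 or 8 (-2.73 to -2.86). With the 4 WT mice alone in the fit, Atp1b2 (limma adjusted p = 0.112) and Mt1 (0.147) were not called.

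Of 34 measured genes of the stem cell identity list, 25 were higher in LSK cells and 0 lower, against 8.08% and 5.46% of all genes. The median difference of the list was 1.82, against -0.03 over all genes, and 22 members differed by at least 2-fold. Procr, the endothelial protein C receptor that marks the most potent stem cells, stood at 10.62 and 9.15 in LSK cells and at 6.71 and 6.39 in progenitors (3.33 ± 0.51). The cell adhesion molecule Esam stood at 11.13 and 11.04 against 8.48 and 8.12 (2.78 ± 0.29). Further members were chosen after their values were seen. Among these, Meis1, a homeobox partner of Hox proteins, stood at 13.67 and 13.49 against 11.30 and 11.24 (2.31 ± 0.18), and Cd34, a sialomucin of progenitors listed under adhesion, at 14.32 and 14.14 against 12.81 and 13.10 (1.27 ± 0.18). The angiopoietin receptor Tek differed by 0.88 ± 0.19 and its ligand Angpt1 by 1.63 ± 0.28. In all, 9 members were not called, and 4 of the 34 had both means under 6.5, so not all 9 lay this low. Among the 9, Prdm16 (-0.13), Hoxb4 (-0.06) and Erg (-0.03), which are also tied to stem cell function, lay near the low end in every mouse. Without any 1 mouse, 20 to 25 members were called higher, the fewest without mouse 6, and without mice 1 and 5 there were 16.

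The plot of called members by mouse shows these genes beside those of 2 further lists. List counts below are to be read beside the shares of all genes, 8.08% higher and 5.46% lower.

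**Figure D2:**
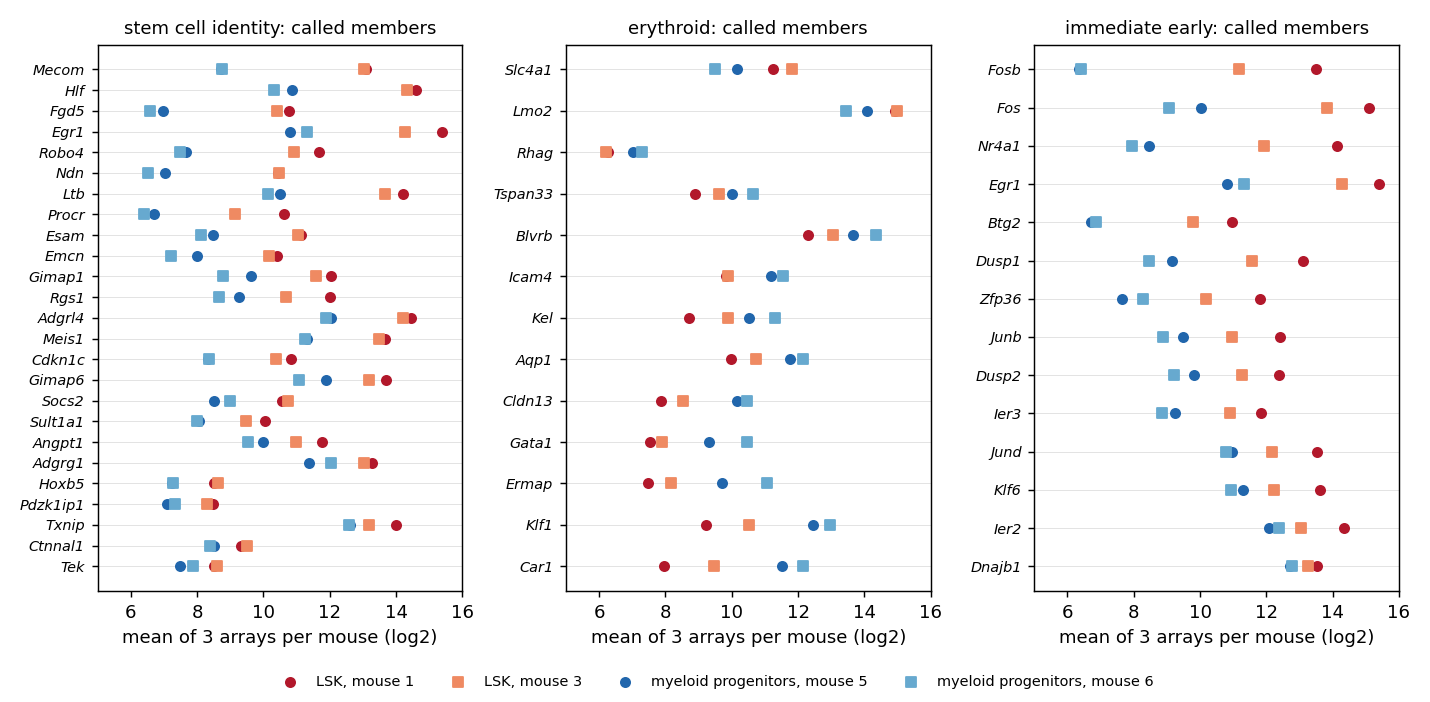
Levels (log2, mean of 3 arrays per mouse) of the called members of the stem cell identity, erythroid and immediate early lists, 1 point per mouse. In the erythroid panel LSK mice (red) lie right of progenitor mice (blue) in 2 genes, Slc4a1 and Lmo2, and left in 11; in the immediate early panel mouse 1 lies right of mouse 3 in all 14.

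Hox genes encode transcription factors that set positional identity, and members of the HoxA and HoxB clusters are active in stem cells. Of 38 measured, 9 were higher in LSK cells and 0 lower, all 9 from the HoxA and HoxB clusters, while 17 of the 38 had both means under 6.5. The median of the list was -0.01. Hoxa10 stood at 9.39 and 9.03 against 7.08 and 6.90 (2.22 ± 0.22), and Hoxa5 at 11.31 and 10.77 against 9.32 and 9.13 (1.81 ± 0.25). Hoxa9, a regulator of stem cell growth, stood at 10.30 and 9.68 against 8.84 and 8.12 (1.51 ± 0.30). The mice of the populations did not overlap in these 3. Hoxb2 differed by 1.58 ± 0.37, Hoxb3 by 1.32 ± 0.25, Hoxb5 by 1.32 ± 0.26, Hoxa7 by 1.20 ± 0.27, Hoxa3 by 1.03 ± 0.22 and Hoxa2 by 0.46 ± 0.13. Of the 9, Hoxa10 and Hoxa5 were called in every fit that left out 1 mouse. Hoxa9 lost its call without mouse 1 or 6 (1.15 to 1.20), Hoxb3 without mouse 1 or 6 (1.13 in both) and Hoxa3 without mouse 1 or 6 (0.66 to 0.86). Hoxb2 lost it without mouse 1, 3 or 5 (1.22 to 1.74), Hoxb5 without mouse 5 (1.31), Hoxa7 without mouse 1 or 5 (0.83 to 1.03) and Hoxa2 without mouse 1, 3, 5, 6, 7 or 8 (0.39 to 0.52). Hoxb2, Hoxa3 and Hoxa2 were not called by limma with neither trend nor robust (adjusted p = 0.0695, 0.0578 and 0.0538). A second probe of Hoxb3 differed by -0.08, and the mean of its probes by 0.62. Without mouse 1, 3 members were called higher.

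In the lymphoid priming list 11 of 20 measured genes were higher in LSK cells and 0 lower, with a median of 0.81. Flt3, the cytokine receptor of multipotent progenitors, stood at 13.32 and 12.94 in LSK cells and at 10.72 and 9.76 in progenitors (2.89 ± 0.30). Dntt, which adds bases at antigen receptor junctions, stood at 9.80 and 9.58 against 8.18 and 6.88 (2.15 ± 0.37). Il7r, the interleukin-7 receptor chain, stood at 9.16 and 9.33 against 8.36 and 7.64 (1.25 ± 0.24). Progenitor mouse 5 lay nearer to the LSK mice than mouse 6 in all 3. Blnk, an adaptor of the B cell receptor, differed by 2.18 ± 0.29 with a progenitor mean of 5.85, and Mef2c by 1.22 ± 0.20. A second probe of Mef2c differed by 1.29 ± 0.39 and was not called (limma adjusted p = 0.0632). Rag1, the recombinase gene, chosen after its value was seen, differed by 0.85 ± 0.24. Without mouse 1 or without mouse 6, 5 members were called. Dntt lost its call without mouse 1 (2.04, adjusted p = 0.0654) and Il7r without mouse 6 (0.89, adjusted p = 0.0508). Blnk was not called in limma fits of single arrays that took mice as random blocks (adjusted p = 0.111). With replicate numbers within mice blocked too, its limma adjusted p was 0.14.

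Genes of committed lymphocytes were read in further lists. In the B cell list 3 of 13 were higher and 0 lower (median 0.47), namely Bank1 (1.13 ± 0.12), Fcrla (0.57 ± 0.11) and the B lineage factor Ebf1 (0.47 ± 0.14), which lost its call without any 1 of the 8 mice (0.44 to 0.50, adjusted p up to 0.177). The progenitor means of Bank1 (6.20) and Fcrla (6.43) lay near the low end. Cd79a, a chain of the B cell receptor, stood at 7.15 and 7.14 against 7.15 and 7.49. In the T and NK cell list 4 of 15 were higher and 2 lower. Gata3, a factor of T cells that stem cells also express, stood at 10.53 in both LSK mice and at 8.32 and 7.89 in progenitors (2.43 ± 0.33). Gzmb, a granule protease of killer cells, stood at 6.90 and 7.05 in LSK cells and at 9.65 and 9.77 in progenitors (-2.73 ± 0.21), and Nkg7 at 10.71 and 10.70 against 12.71 and 12.21 (-1.75 ± 0.21). Both granule genes thus lay lower in LSK cells in every mouse and were called in every fit that left out 1 mouse. The T cell receptor genes Cd3e and Cd3g were not called, whereas Cd3d (0.81 ± 0.20) was, and lost the call without mouse 3, 5 or 6 (0.54 to 0.88). Prf1 (0.43 ± 0.12) and Eomes (0.13 ± 0.04) lay near the low end in every mouse, and Prf1 lost its call without mouse 1 or 6 and Eomes without mouse 1, 3, 5, 6, 7 or 8 (0.29 to 0.35 and 0.11 to 0.15). Limma with neither trend nor robust did not call Cd3d (adjusted p = 0.0785), Prf1 (0.103) or Eomes (0.223), and with the 4 WT mice alone Ebf1 (0.169) and Eomes (0.0835) were not called. Eomes was not called in the random mouse block fits either (0.0562 and 0.0638).

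The erythroid list lay lower in LSK cells, with 11 of 30 measured members lower, 2 higher and a median of -0.997. Gata1, the transcription factor that drives red cell and platelet fates, stood at 7.52 and 7.90 in LSK cells and at 9.32 and 10.46 in progenitors (-2.18 ± 0.38). The membrane protein gene Ermap stood at 7.48 and 8.16 against 9.71 and 11.06 (-2.56 ± 0.50), and Cldn13 at 7.86 and 8.54 against 10.15 and 10.47 (-2.10 ± 0.30). In these 3 genes mouse 1 was the lowest and mouse 6 the highest. The water channel gene Aqp1 differed by -1.60 ± 0.31 and the blood group gene Kel by -1.60 ± 0.41. Epor, the erythropoietin receptor, at 7.29 and 8.11 against 8.93 and 9.91, did not pass (-1.72 ± 0.49, limma adjusted p = 0.0643). Slc4a1, the anion exchanger of maturing red cells, lay the other way, at 11.25 and 11.82 in LSK cells against 10.17 and 9.51 (1.70 ± 0.46), as did Lmo2, a cofactor also needed by stem cells (1.18 ± 0.21). Alas2, the red cell enzyme that starts heme synthesis, stood at 13.54 and 14.05 against 12.85 and 12.72 without passing (1.01 ± 0.38, limma adjusted p = 0.137). Slc4a1 lost its call without mouse 1, 2, 3, 4, 5 or 6 (1.37 to 2.03), Ermap without mouse 1 (-2.22), Aqp1 without mouse 1 or 6 (-1.23 to -1.41) and Kel without mouse 1, 6, 7 or 8 (-1.02 to -1.60). Slc4a1 (limma adjusted p = 0.0904) and Kel (0.0866) were not called with neither trend nor robust, nor was Kel with the 4 WT mice alone (0.0728). Counts of lower members ran from 5 without mouse 6 to 15.

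Promoter windows, 250 bases before the start site from RefSeq (GRCm38.p6), were at hand for 23 of the 30 erythroid genes. The letters AGATAA or their complement on the other strand, TTATCT, the core bound by GATA factors, were in 10 of 31 windows of these genes (32.3%), against 9.99% of all 32851 windows and 7.65% of the windows of genes tested. Among called erythroid genes, 2 of 10 windows held them, in Kel and in Icam4, an adhesion gene of red cells that stood at 9.83 and 9.90 against 11.18 and 11.54 (-1.50 ± 0.20, chosen after its value was seen). A stretch of 120 bases of each shows the match in capitals, 5′ to 3′ on the gene's strand, for Kel at chr6:41704326-41704445 (minus strand) and for Icam4 at chr9:21029312-21029431 (plus strand).
Kel: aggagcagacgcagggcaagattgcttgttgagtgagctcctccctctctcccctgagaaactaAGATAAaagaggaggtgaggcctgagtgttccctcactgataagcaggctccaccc
Icam4: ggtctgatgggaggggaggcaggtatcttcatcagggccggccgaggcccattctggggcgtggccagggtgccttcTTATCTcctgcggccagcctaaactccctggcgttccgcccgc
Over all genes with windows, these letters were in 6.24% of windows of genes higher in LSK cells, 6.74% of those lower and 7.85% of those not called. A match is a description of the letters in the window, not a measured binding site.

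Of 23 measured heme and iron genes 6 were lower and 0 higher, with a median of -0.64. Slc40a1, which exports iron, stood at 11.49 and 12.23 in LSK cells and at 13.35 and 13.51 in progenitors (-1.57 ± 0.31). Alas1, the heme synthesis enzyme of all cells, stood at 12.31 and 12.90 against 14.06 in both progenitor mice (-1.46 ± 0.26). The mitochondrial transporters Abcb10 (-1.15 ± 0.23) and Tmem14c (-1.09 ± 0.22), the heme pathway enzyme Uros (-0.93 ± 0.26) and the iron-sulfur protein Glrx5 (-0.91 ± 0.20) made up the others. Tfrc, the transferrin receptor, was not called (-1.02 ± 0.44, limma adjusted p = 0.188). Alas1 was called in every fit that left out 1 mouse. Slc40a1 lost it without mouse 1, 5 or 6 (-1.20 to -1.65), Abcb10 without mouse 3 or 5 (-0.97 to -1.08), Tmem14c without mouse 1 or 6 (-0.80 to -1.0), Uros without mouse 1, 5, 6, 7 or 8 (-0.64 to -1.12) and Glrx5 without mouse 1, 5 or 6 (-0.71 to -0.92). Uros was also not called with neither trend nor robust (limma adjusted p = 0.0748) or after cyclic loess (0.0563). In the list, 2 members were called without mouse 1 or without mouse 6, and 0 without mice 1 and 5.

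Of 25 measured megakaryocyte genes 3 were higher in LSK cells and 1 lower, with a median of -0.02. These shares, 12% and 4%, lie near the 8.08% and 5.46% of all genes. Mmrn1, a protein of platelet granules, stood at 9.81 and 8.74 against 7.66 and 7.12 (1.89 ± 0.33), the P-selectin gene Selp at 8.37 and 9.39 against 7.16 and 7.35 (1.63 ± 0.33), and the pleckstrin gene Plek at 12.98 and 12.47 against 11.32 and 11.14 (1.49 ± 0.22). Gp5, part of the platelet receptor for von Willebrand factor, lay lower at 10.001 and 10.463 against 11.30 and 11.31 (-1.07 ± 0.23). The platelet factor gene Pf4 (-0.77 ± 0.24) and the integrin gene Itga2b (0.23 ± 0.09, near the low end in every mouse) were not called. By its brightest probe Plek was called in every fit without 1 mouse. Mmrn1 lost its call without mouse 6 (1.62), Selp without mouse 5 (1.54) and Gp5 without mouse 1, 5 or 6 (-0.84 to -1.08). A second probe of Plek differed by 0.82 ± 0.27 and was not called (limma adjusted p = 0.0714).

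Neutrophil granule genes split in both directions, 6 of 28 higher and 7 lower, with a median of -0.34. Lower in LSK cells, beside Elane and Ms4a3, were Ctsg, the cathepsin of primary granules, at 11.42 and 12.39 against 14.16 and 14.04 (-2.19 ± 0.29), and Cebpe, a factor of granulocyte maturation, at 9.96 and 10.24 against 11.98 and 11.63 (-1.71 ± 0.21). Higher in LSK cells were Padi4, an enzyme of neutrophil traps, at 11.70 and 11.92 against 9.58 and 9.46 (2.29 ± 0.21), and Ltf, the lactoferrin of secondary granules, at 14.03 and 13.96 against 12.459 and 12.003 (1.76 ± 0.21). The other higher members were also secondary or tertiary granule or cytosolic genes of mature neutrophils, chosen after their values were seen, with Mmp9 at 1.27 ± 0.24, Lcn2 at 0.96 ± 0.21, S100a9 at 0.81 ± 0.21 and Camp at 0.64 ± 0.15. Camp stood at 14.55 and 14.38 in LSK cells and at 13.88 and 13.78 in progenitors, high in both populations. Mpo, the myeloperoxidase, stood at 14.57 and 15.26 against 15.35 and 15.71 and was not called (-0.61 ± 0.25, limma adjusted p = 0.151), nor was the protease gene Prtn3 (-0.31 ± 0.20, limma adjusted p = 0.368). Elane, Ms4a3, Ctsg, Cebpe, Padi4 and Ltf were called in every fit that left out 1 mouse, while without mouse 1 the higher members numbered 2.

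Monocyte, macrophage and dendritic cell genes numbered 5 higher and 8 lower of 25 (median -0.06). Csf1r, the receptor for the macrophage growth factor, stood at 9.29 and 9.88 in LSK cells and at 11.45 and 11.19 in progenitors (-1.73 ± 0.25). Irf8, which drives monocyte and dendritic fates, stood at 9.73 and 10.25 against 11.45 and 11.53 (-1.50 ± 0.24). The clotting factor gene F13a1, strong in monocyte precursors, stood at 9.84 and 10.74 against 13.02 and 13.01 (-2.72 ± 0.30). All 3 lay lower in both LSK mice, with mouse 1 the lowest. Zbtb46, a factor of dendritic cells, differed by -1.43 ± 0.21 and the perforin-like Mpeg1 by -1.20 ± 0.23, while Tcf4, a factor of plasmacytoid dendritic cells, lay higher (1.07 ± 0.23). The largest difference of this list was upward, in Flt3 (2.89 ± 0.30), which is also on the lymphoid priming list. Mpeg1 lost its call without mouse 1 (-1.05) and Tcf4 without mouse 1 or 5 (0.91 to 0.97). A second probe of Mpeg1 differed by -0.15, and the mean of its probes by -0.68 (limma adjusted p = 0.0508). Without mice 1 and 5 the lower members numbered 1.

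Of 20 mast cell, basophil and eosinophil genes 7 were lower and 1 higher, with a median of -0.45. The mast cell carboxypeptidase gene Cpa3 stood at 12.27 and 11.89 in LSK cells and at 14.14 and 13.75 in progenitors (-1.86 ± 0.22), and the basophil protease gene Mcpt8 at 10.76 and 10.71 against 12.47 and 12.26 (-1.63 ± 0.18). Hdc, which makes histamine, stood at 9.83 and 10.39 against 12.06 and 12.36 (-2.10 ± 0.36). The populations were apart in these genes by more than the mice of either were. Ms4a2, a chain of the IgE receptor, differed by -1.12 ± 0.16 and Prss34 by -0.83 ± 0.19, while the lipoxygenase gene Alox15 was higher (1.06 ± 0.24). Cpa3, Mcpt8 and Ms4a2 were called in every fit that left out 1 mouse, Hdc lost it without mouse 6 (-1.95, adjusted p = 0.0511), Prss34 without mouse 1, 3, 5 or 6 (-0.75 to -0.90) and Alox15 without mouse 3, 5 or 6 (0.88 to 1.11), and 3 lower members were left without mouse 6.

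**Figure D3:**
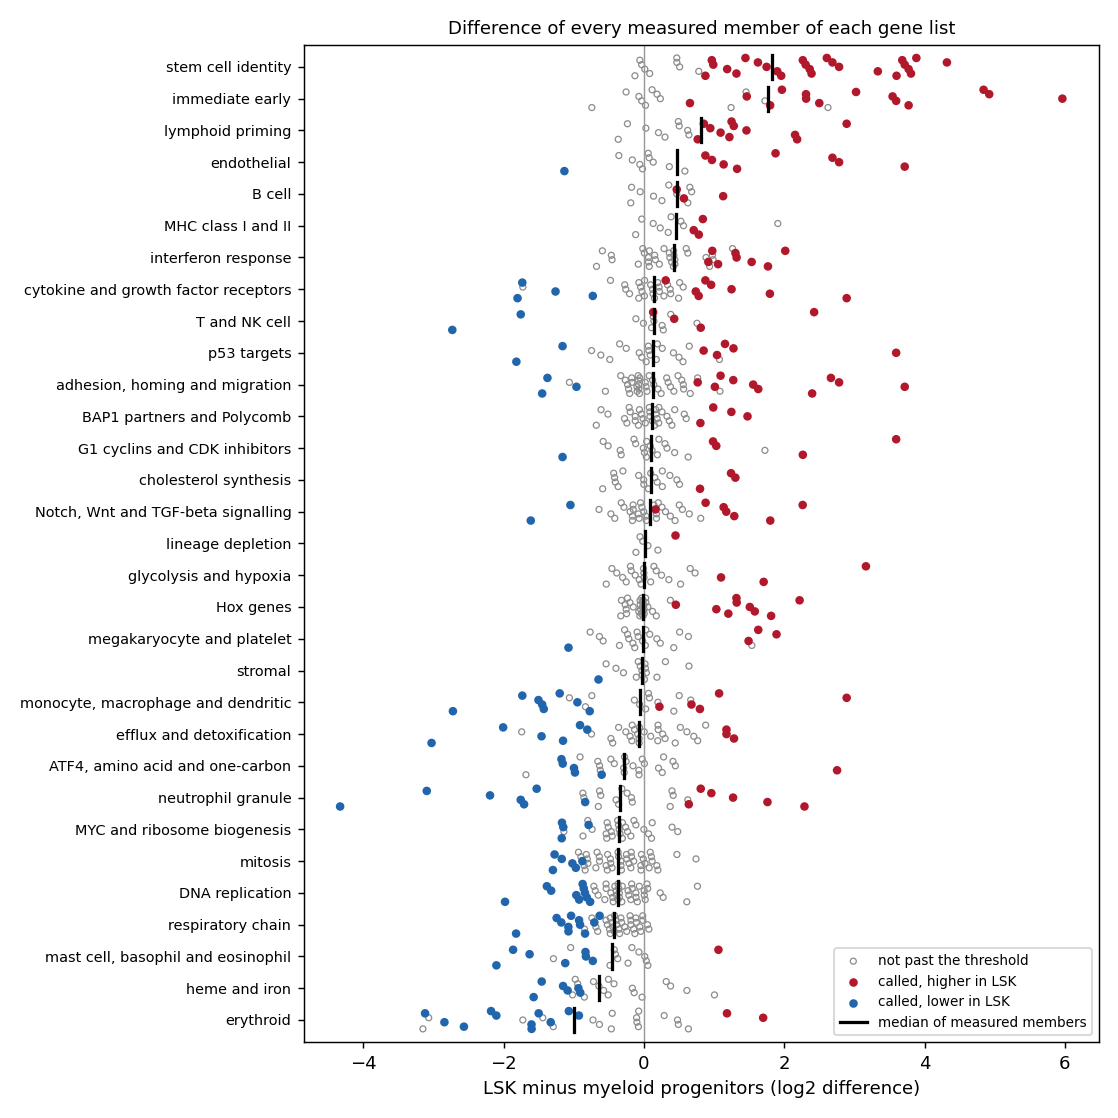
Difference between WT LSK cells and WT myeloid progenitors (log2) of every measured member of 31 gene lists, 1 point per gene, ordered by the list median (black bar). Filled points are called genes, red higher and blue lower in LSK cells; medians run from 1.82 for stem cell identity to -0.997 for the erythroid list.

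Cytokine and growth factor receptors numbered 8 higher and 4 lower of 37, with a median of 0.15. Beside Flt3 and Il7r, the growth hormone receptor gene Ghr was higher, at 8.98 and 9.16 against 7.01 and 7.54 (1.796 ± 0.26), and so was the TGF-beta receptor gene Tgfbr2, at 13.30 and 12.80 against 12.10 and 12.08 (0.96 ± 0.21). Beside Csf1r, Met, the receptor for hepatocyte growth factor, was lower, at 7.51 and 7.58 against 9.35 and 9.33 (-1.80 ± 0.17), and the interferon-gamma receptor gene Ifngr1 at 10.70 and 10.91 against 12.07 and 12.06 (-1.26 ± 0.25). Tgfbr2 lost its call without mouse 1, 5 or 6 (0.71 to 0.97) and Ifngr1 without mouse 1 (-1.16, adjusted p = 0.0627). The other probes of Ghr differed by -0.0064 and 0.57, and the mean of its probes by 0.78.

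Cell cycle genes lay lower in LSK cells where they were called. In the DNA replication list 10 of 47 were lower and 0 higher (median -0.37, with 38 of 47 differences below 0), and in the mitosis list 6 of 48 were lower and 0 higher (median -0.36, with 39 below 0). Over all genes, 10008 of 17741 differences were below 0. Ccne1, the cyclin that starts DNA replication, stood at 9.18 and 9.97 in LSK cells and at 11.49 and 11.63 in progenitors (-1.98 ± 0.31). Gins2, part of the replicative helicase, stood at 8.93 and 9.03 against 10.63 and 10.09 (-1.38 ± 0.24). The mitotic cyclin gene Ccnb2 stood at 7.31 and 7.24 against 8.40 and 8.48 (-1.17 ± 0.19). Aurkb, a kinase of chromosome segregation, differed by -1.30 ± 0.28 and Birc5, its partner, by -1.27 ± 0.27. Mki67, the usual proliferation marker, at 11.20 and 11.72 against 11.89 and 11.53, overlapped between the populations (-0.25 ± 0.31), and Mcm2 (-0.54 ± 0.25) and Cdk1 (-0.24 ± 0.21) were not called either. Ccne1, Gins2, Rpa3 (-1.32 ± 0.22) and Ccnb2 were called in every fit that left out 1 mouse. Aurkb lost it without mouse 1 or 5 (-1.05 to -1.10) and Birc5 without mouse 1, 5 or 6 (-1.004 to -1.274). The other probes of Birc5 differed by -0.88 and 0.11, and the mean of its probes by -0.68. The counts were 4 and 1 without mouse 1 or mouse 5, and 0 in both lists without both.

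Among G1 cyclins and CDK inhibitors 4 of 24 were higher and 1 lower (median 0.10), 16.7% and 4.17% against 8.08% and 5.46% of all genes. Cdkn1c, the p57 inhibitor that keeps stem cells out of cycle, stood at 10.83 and 10.38 in LSK cells and at 8.32 and 8.35 in progenitors (2.27 ± 0.22). The forkhead factors Foxo1, at 8.55 and 8.45 against 7.42 and 7.52 (1.03 ± 0.18), and Foxo3, at 7.27 and 6.64 against 5.98 and 5.96 (0.99 ± 0.21), were also higher. The largest difference of the list was that of Btg2 (3.59 ± 0.56), which is described with the immediate early genes. Gadd45a was the lower member, at 9.78 and 9.59 against 10.55 and 11.13 (-1.16 ± 0.25). The D cyclins Ccnd1, Ccnd2 and Ccnd3 were not called (0.30, 0.33 and 0.12). Cdkn1c and Foxo1 were called in every fit that left out 1 mouse. Foxo3 lost its call without mouse 1, 5 or 6 (0.67 to 0.99) and Gadd45a without mouse 3 or 6 (-0.87 to -1.06). Foxo3 was also not called with neither trend nor robust (limma adjusted p = 0.0582).

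Respiratory chain, ribosome and amino acid genes were read together. In the respiratory chain list 11 of 45 were lower and 0 higher, with a median of -0.42 and 43 of 45 differences below 0. Uqcrq, a subunit of complex III, stood at 9.81 and 10.10 in LSK cells and at 12.02 and 11.53 in progenitors (-1.82 ± 0.24). Cox5a, a subunit of complex IV, stood at 13.87 and 13.85 against 14.84 and 15.02 (-1.07 ± 0.15), and the complex I subunit gene Ndufb3 at 8.79 and 8.80 against 9.91 and 10.16 (-1.24 ± 0.20). The LSK mice lay close together in these genes, and the calls of all 3 held whichever mouse was left out. In the MYC and ribosome biogenesis list 4 of 31 were lower and 0 higher (median -0.36), among them the ribosome assembly factor gene Rrs1 at 11.18 and 11.35 against 12.52 and 12.31 (-1.15 ± 0.20). In the amino acid and one-carbon list 5 of 27 were lower, including the folate cycle enzymes Mthfd1 (-1.17 ± 0.27) and Mthfd2 (-1.16 ± 0.28), and 1 was higher, the pseudokinase Trib3 at 9.99 and 9.30 against 6.80 and 6.99 (2.75 ± 0.27). Mthfd1 lost its call without mouse 1, 5 or 6 (-0.94 to -1.26) and Mthfd2 without mouse 1 or 5 (-0.90 to -0.98), and neither was called with neither trend nor robust (limma adjusted p = 0.0538 and 0.0583). Without mouse 1 the lower counts were 5 for the respiratory chain, 1 for ribosome biogenesis and 0 for the amino acid list.

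In glycolysis and hypoxia 3 of 24 genes were higher and 0 lower, with a median of 0.0015. The share higher, 12.5%, lies near the 8.08% of all genes. Aldoc, an aldolase, stood at 12.08 and 11.68 in LSK cells and at 8.56 and 8.88 in progenitors (3.16 ± 0.24, limma adjusted p = 5.86e-05). The glucose transporter gene Slc2a3 stood at 12.88 and 12.39 against 11.05 and 10.81 (1.71 ± 0.24), and Ddit4, an inhibitor of mTOR signalling, differed by 1.10 ± 0.26. The glycolytic genes Hk2 (-0.46 ± 0.21) and Pkm (0.18 ± 0.15) were not called. Of 21 measured members of the cholesterol synthesis list 3 were higher and 0 lower, Stard4 (1.30 ± 0.28), Insig1 (1.24 ± 0.23) and Elovl6 (0.80 ± 0.23). That is 14.3% higher, against 8.08% of all genes. The count is of list members, not of synthesis enzymes alone. Sqle, an enzyme of the list, was not called (0.06 ± 0.27, limma adjusted p = 0.917). Ddit4 lost its call without mouse 1, 5 or 6 (0.84 to 1.14), Stard4 without mouse 1, 3 or 6 (1.19 to 1.36) and Elovl6 without mouse 1, 3, 5, 6, 7 or 8 (0.63 to 0.97). Ddit4 (limma adjusted p = 0.0521) and Elovl6 (0.0518) were also not called with neither trend nor robust.

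The immediate early list holds genes switched on within minutes of growth signals, stress or cell isolation. Of 26 measured, 14 were higher in LSK cells and 0 lower, with a median of 1.76. Fos stood at 15.09 and 13.82 in LSK cells and at 10.02 and 9.05 in progenitors (4.92 ± 0.83), and its relative Fosb at 13.51 and 11.18 against 6.36 and 6.40 (5.96 ± 1.13). Both encode parts of the AP-1 factor, and their populations did not overlap, though the LSK mice were far apart, most so in Fosb. The nuclear receptor gene Nr4a1 stood at 14.14 and 11.94 against 8.45 and 7.96 (4.84 ± 0.74), and the zinc-finger factor Egr1, also on the stem cell list, at 15.40 and 14.28 against 10.81 and 11.32 (3.77 ± 0.73). Dusp1, a phosphatase that shuts off MAP kinases, stood at 13.11 and 11.57 against 9.14 and 8.45 (3.54 ± 0.73), Btg2, an antiproliferative gene that p53 also induces, at 10.95 and 9.80 against 6.71 and 6.85 (3.59 ± 0.56), Zfp36, which destabilises RNA, at 11.81 and 10.17 against 7.65 and 8.28 (3.02 ± 0.67), and Junb at 12.40 and 10.96 against 9.49 and 8.87 (2.50 ± 0.43). Mouse 1 was the highest in each of these, and Jun, at 11.28 and 9.13 against 7.504 and 7.655, did not pass (2.62 ± 0.68, limma adjusted p = 0.0655).

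The calls of this list depended on single mice. Without mouse 5 or without mouse 6, 3 members were called, and the count reached 18 in another fit without 1 mouse. Leaving out mouse 1, 3, 5 or 6 ended the call of Fos (4.29 to 5.55, adjusted p up to 0.121). The same held for Fosb without mouse 1, 2, 4, 5 or 6 (4.80 to 5.99, up to 0.139), for Egr1 without mouse 1, 2, 3, 4, 5 or 6 (3.21 to 4.33, up to 0.161) and for Nr4a1 without mouse 5 or 6 (4.59 to 5.09, up to 0.0662). Dusp1 and Zfp36 lost it without mouse 1, 2, 4, 5 or 6 (2.77 to 3.89 and 2.20 to 3.34), Btg2 without mouse 5 (3.53) and Junb without mouse 6 (2.19). A second probe of Junb differed by 1.43 ± 0.40 and was not called (limma adjusted p = 0.0552). With the 4 WT mice alone in the fit, Fosb (limma adjusted p = 0.076), Nr4a1 (0.0994) and Zfp36 (0.0605) were not called. Time from death to lysis and the sort order are not given in the labels, and their part in these levels was not tested.

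The cAMP response element TGACGTCA reads the same on both strands. It was in 2 of the 28 windows of measured immediate early genes (7.14%), against 1.55% of all windows and 2.10% of the windows of genes tested. Both belonged to called genes, Dusp1 at chr17:26508552-26508671 and Btg2 at chr1:134079258-134079377, both on the minus strand. The 120 bases around each match, 5′ to 3′ with the element in capitals, show where it lies in these promoters.
Dusp1: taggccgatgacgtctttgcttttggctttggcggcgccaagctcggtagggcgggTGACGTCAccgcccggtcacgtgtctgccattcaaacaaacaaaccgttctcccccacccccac
Btg2: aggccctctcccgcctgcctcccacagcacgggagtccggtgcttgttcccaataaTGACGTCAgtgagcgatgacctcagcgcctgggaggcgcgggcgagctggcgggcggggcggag
The matches began 143 bases before the start site of Dusp1 and 166 bases before that of Btg2. Over all genes with windows, the element was in 1.31% of windows of genes higher in LSK cells, 2.67% of those lower and 2.15% of those not called.

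Interferon response genes numbered 8 higher and 0 lower of 38, with a median of 0.42 and 32 differences above 0. The GTPase gene Iigp1 stood at 10.90 and 10.52 in LSK cells and at 8.21 and 9.19 in progenitors (2.01 ± 0.39), Gbp2, a guanylate-binding protein, at 11.07 and 10.76 against 9.39 and 9.80 (1.32 ± 0.25), and Irgm2, a GTPase of pathogen defence, at 11.14 and 10.68 against 9.33 and 9.89 (1.30 ± 0.26). Progenitor mouse 5 was the lowest of the 4 mice in each. Isg15, a ubiquitin-like protein, at 9.43 and 9.40 against 8.41 and 9.70, overlapped between the populations (0.36 ± 0.35). The RNA sensor gene Ddx58 differed by 1.06 ± 0.17 and was called in every fit that left out 1 mouse. Iigp1 and Irgm2 lost theirs without mouse 1 or 5 (1.52 to 1.82 and 1.02 to 1.07) and Gbp2 without mouse 1 (1.16). Without mouse 1 the count was 1, and without mice 1 and 5 it was 0. In the MHC list 3 of 12 were higher and 0 lower, the peptide transporter genes Tap1 (0.78 ± 0.20) and Tap2 (0.71 ± 0.16) and the MHC class I regulator Nlrc5 (0.84 ± 0.25). None of these 3 calls held without mouse 1 or without mouse 3. Tap1 was also lost without mouse 5 (0.51 to 0.86), Tap2 without mouse 6 (0.65 to 0.74) and Nlrc5 without mouse 5, 6, 7 or 8 (0.65 to 1.03). Tap1 (limma adjusted p = 0.0578) and Nlrc5 (0.0667) were not called with neither trend nor robust, and the second probe of Nlrc5 differed by -0.06 (mean of its probes 0.39, adjusted p = 0.18).

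The letters GAAANNGAAA or their complement on the other strand, a core of interferon response elements, were in 11 of 33 windows of measured interferon genes (33.3%), against 2.98% of all windows and 2.62% of the windows of genes tested. Gbp2 at chr3:142620543-142620662 and Irgm2 at chr11:58214857-58214976, both on the plus strand, are the called genes that held them and are shown 5′ to 3′ with the match in capitals.
Gbp2: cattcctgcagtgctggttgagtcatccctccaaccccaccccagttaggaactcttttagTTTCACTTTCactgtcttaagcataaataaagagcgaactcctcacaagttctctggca
Irgm2: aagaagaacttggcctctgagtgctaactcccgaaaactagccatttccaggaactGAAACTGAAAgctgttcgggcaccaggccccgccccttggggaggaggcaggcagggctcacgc
The matches began 59 and 64 bases before the start sites. Windows were at hand for 28 of the 38 measured interferon genes and for 4 of the 8 called ones. The called genes without a window were not searched. Over all genes with windows, these letters were in 3.02% of windows of genes higher in LSK cells, 2.46% of those lower and 2.59% of those not called.

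Over all genes with windows, a ratio of observed to expected CpG above 0.6, a usual mark of CpG islands, was met by 50.1% of the windows of genes higher in LSK cells, by 61.9% of those of genes lower and by 49.5% of those of genes not called. Windows of the stem cell identity list met it in 35.5%, those of the respiratory chain list in 81.6% and those of the neutrophil granule list in 12%. These shares are descriptions without a test, and a gene can have several windows.

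In the adhesion, homing and migration list 10 of 49 were higher and 3 lower (median 0.12). The share higher was 20.4%, and the share lower, 6.12%, lies near the 5.46% of all genes. The junction proteins F11r, at 9.66 and 9.61 in LSK cells against 7.07 and 6.87 (2.67 ± 0.22), and Jam3, at 9.37 and 8.97 against 6.98 and 6.57 (2.40 ± 0.22), were apart by more than 5-fold each and were called in every fit that left out 1 mouse. The integrin gene Itga4 was lower, at 9.33 and 9.19 against 10.52 and 9.92 (-0.96 ± 0.24), and the homing receptor gene Cxcr4 was not called (-0.26 ± 0.24). Of 38 Notch, Wnt and TGF-beta genes 7 were higher and 2 lower (median 0.09). These shares were 18.4% and 5.26%, against 8.08% and 5.46% of all genes. Ltbp3, which tethers latent TGF-beta, stood at 11.76 and 11.49 against 9.16 and 9.56 (2.26 ± 0.29), the Wnt receptor gene Fzd6 at 10.35 and 9.85 against 8.43 and 8.17 (1.801 ± 0.24) and the signal transducer Smad3 at 12.85 and 12.61 against 11.39 and 11.48 (1.29 ± 0.20). Dtx4, a regulator of Notch, was lower at 7.30 and 7.36 against 8.97 and 8.90 (-1.61 ± 0.19). Hes1, a Notch target, was not called by its brightest probe (-0.20 ± 0.18), whereas its other probe differed by 2.17 ± 0.20, so its direction depends on the probe. Itga4 lost its call without mouse 1, 3 or 5 (-0.66 to -1.03). Counts without 1 mouse went down to 7 higher and 0 lower in the adhesion list and to 3 higher and 1 lower in the signalling list.

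Markers of other cells that a marrow sort could hold were set beside these genes. In the endothelial list 8 of 18 were higher and 1 lower (median 0.47), led by Robo4, Esam, Emcn, at 10.41 and 10.18 against 8.00 and 7.22 (2.69 ± 0.26), and Tie1, at 10.83 and 10.61 against 8.76 and 8.93 (1.88 ± 0.24), genes that stem cells share with endothelium. Among the 9 members not called, Cdh5 stood at 6.43 to 6.53 over the 4 mice, Kdr at 6.96 to 7.27 and Pecam1 at 7.06 to 7.15. Whether the sorts held endothelial cells was not tested. In the stromal list 0 of 16 were higher and 1 lower (6.25%, near the 5.46% of all genes). The lower gene, Col1a1 (-0.65 ± 0.17), stood at 6.88 to 7.69 over the mice. It lost its call without mouse 3, 5 or 6 (-0.51 to -0.66) and after cyclic loess (-0.56). Of the 16, 8 had both means under 6.5.

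Efflux and detoxification genes numbered 3 higher and 6 lower of 36 (median -0.07). The share higher, 8.33%, lies near the 8.08% of all genes, and the share lower was 16.7% against 5.46%. Abcg2, the dye pump of side population stem cells, stood at 11.65 and 11.66 in LSK cells and at 11.08 and 11.20 in progenitors, apart but not called (0.52 ± 0.20, limma adjusted p = 0.114). The glutathione peroxidase gene Gpx3 was lower, at 8.01 and 8.85 against 10.30 and 10.57 (-2.005 ± 0.28). Of 26 p53 targets 5 were higher and 2 lower (median 0.13), 19.2% and 7.69% against 8.08% and 5.46% of all genes. Btg2 led these, Dram1 was lower at 9.69 and 9.84 against 11.42 and 11.73 (-1.82 ± 0.23), and Cdkn1a, the p21 inhibitor, at 9.85 and 9.27 against 9.19 and 9.75, overlapped (0.09 ± 0.29). Of 35 BAP1 partners and Polycomb genes 4 were higher and 0 lower (median 0.12), and the share higher, 11.4%, lies near the 8.08% of all genes. These were the chromobox genes Cbx7, at 11.05 and 10.51 against 8.96 and 9.65 (1.48 ± 0.29), and Cbx6 (1.25 ± 0.27), the methyltransferase gene Ezh1, at 11.32 and 11.09 against 10.24 and 10.19 (0.99 ± 0.20), and the ubiquitin ligase gene Ring1 (0.81 ± 0.20). Ezh2, the methyltransferase of dividing cells, was not called (-0.61 ± 0.22, limma adjusted p = 0.0966). Without mouse 1, 0 of the 4 were called (Cbx6 1.22 and Ezh1 0.87), and 1 of the p53 targets was called higher. Cbx7 also lost its call without mouse 5 (1.13 to 1.20 in both fits) and Ring1 without mouse 3, 5 or 6 (0.76 to 0.86 in the 4 fits). A second probe of Ring1 differed by -0.20, and the mean of its probes by 0.30 (limma adjusted p = 0.333).

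The same contrast was read in the mice with a knockout label (KO), LSK cells of mice 2 and 4 against progenitors of mice 7 and 8, which share no sample with the WT mice but share the pooled spread of the fit. Limma called 2262 genes there (12.8%), 1288 higher and 974 lower. Of the WT calls, 840 higher and 522 lower ones were also called in KO in the same direction, which is 56.7% of the WT calls and 60.2% of the KO calls, and 0 were called in the opposite direction. Of the 2403 WT calls, 2311 had the same sign in KO. Over all genes the WT and KO differences correlated with a Pearson r of 0.786, and the share of all genes with the same sign was not counted. Mecom differed by 3.55 in KO, Hlf by 2.86, Elane by -2.09 and Klf1 by -2.20, all called. Several of the 15 largest WT differences in each direction were not called in KO. They were Jchain (2.64, limma adjusted p = 0.177), Lig3 (1.19, 0.272), Fosb (3.16, 0.178) and Mt1 (-0.44, 0.698). Fos, Egr1, Ms4a3, Dmkn, Atp1b2 and Aldh1a7 were not called in KO either, and the others of the 15 in each direction were. The stem cell identity list had 21 higher and 1 lower in KO, the erythroid list 1 and 8, the lymphoid priming list 5 and 1, the B cell list 0 and 0 and the immediate early list 5 and 0.

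**Figure D4:**
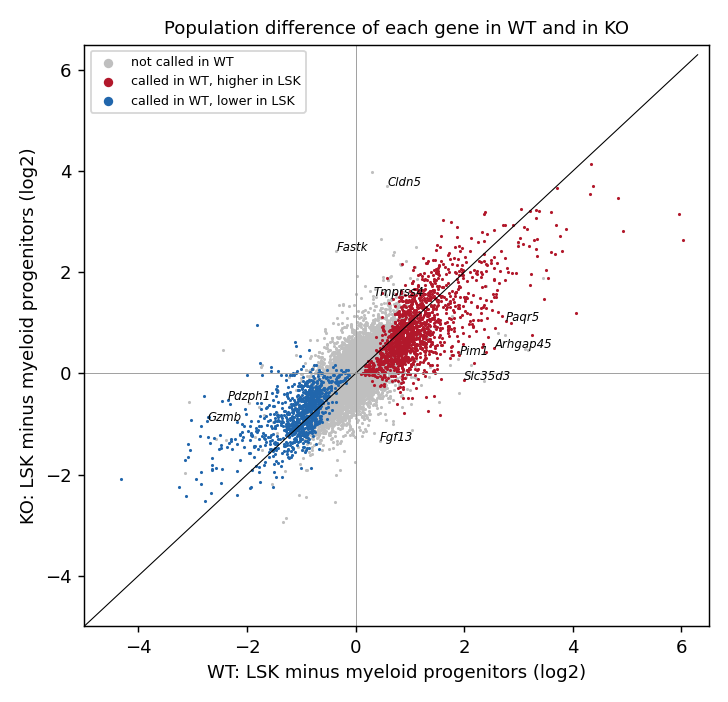
Difference between LSK cells and myeloid progenitors (log2) of each of 17741 genes in WT (horizontal) and in KO mice (vertical), with the line of equal differences. Red and blue points were called in WT, and no gene was called in opposite directions; the names mark the 10 genes named for the difference between WT and KO.

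The test of the difference between both contrasts called 11 genes (0.062%), 8 with a larger and 3 with a smaller value in WT, and 1126 passed an unadjusted p of 0.05. The count was 0 when limma was run with neither trend nor robust. Arhgap45 stood at 13.61 and 13.50 in WT LSK cells and at 10.997 and 11.011 in WT progenitors (2.55 ± 0.21), against a difference of 0.50 in KO. The progesterone receptor family gene Paqr5 stood at 9.16 and 9.39 against 6.62 and 6.38 (2.77 ± 0.16, 1.03 in KO), the kinase gene Pim1 at 14.03 and 13.99 against 12.19 and 12.02 (1.91 ± 0.16, 0.36 in KO) and Slc35d3 at 9.22 and 9.07 against 7.27 and 7.04 (1.99 ± 0.19, -0.13 in KO). In all 4 the WT populations did not overlap and the mice of each lay close together. The difference between WT and KO lost its call for Arhgap45 without mouse 1, 5, 6 or 8 (1.89 to 2.06, largest adjusted p 0.121), for Pim1 without mouse 1, 6, 7 or 8 (1.46 to 1.60, up to 0.129), for Paqr5 without mouse 6 or 8 (1.62 to 1.77, up to 0.102) and for Slc35d3 without mouse 6 or 8 (1.95 to 2.00, up to 0.0737).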

How the data were processed

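RNA of sorted bone marrow cells was amplified, labelled with Cy5 and hybridised to 1-colour arrays, per the labels' protocols. The values used are the deposited log2 values, 1 per probe and array, from 5.66 to 15.93; the submitters' processing notes name limma, while the sources used here give neither its version nor the background correction and normalization. The 3 arrays of a mouse were averaged, and limma 3.58.1 in R 4.3.3 was fitted to all 8 mice in 4 groups (eBayes options trend and robust). Its residual degrees of freedom were 4, and the prior ones had a median of 6.91. P-values were adjusted by Benjamini-Hochberg over 22439 probes, with a threshold of 0.05, and the code was tested on simulated data. Symbols were updated through RefSeq: 18213 probes matched a current symbol, 2126 a synonym, 36 kept the array's name and 2064 had none. Of several probes of a gene, that with the highest mean over all arrays was used, which left 17741 genes, of which 2277 had several. Among the called genes in WT, 347 had several probes. In 83 of these another probe was called in the same direction. In 88 another probe had the opposite sign, and in 1 that probe was called.

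The members and gene lists were chosen with earlier results of these data known. Named were the 15 largest called differences in each direction with mice that did not overlap and a brighter mean above 7.20 (the median probe), the first 3 genes of each list with up to 6 further called members by size, the sort and sex-linked genes and Bap1. For the difference between WT and KO, 5 genes in each direction were named, filled by unadjusted p. Genes outside this rule, chosen after their values were seen, were Angpt1, Camp, Cd34, Cd3g, Erg, Hoxb4, Icam4, Itgam, Lcn2, Lmo2, Meis1, Mmp9, Prdm16, Ptprc, Rag1, S100a9 and Tek. The number of mice limits the precision. Alternatives were the samples, the replicate unit, the eBayes options, filters on dim probes, 2 scalings, the probe choice, a 2-fold minimum and leaving out mice.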

Additional observations from a re-analysis of the deposited data

Results flagged for a closer look

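The difference between LSK cells and progenitors differed between WT and KO mice in 11 of 17741 genes (0.062%), by the limma test of that difference. The 10 genes named for it were taken first from the called ones and then filled by unadjusted p. That 7 of the 10 were called therefore follows from the naming rule. Cldn5, a claudin of endothelial junctions, stood apart by 0.58 in WT and by 3.70 in KO, so that WT minus KO was -3.12. Fastk differed by -0.36 in WT and 2.42 in KO (-2.78). Slc35d3 gave 1.99 and -0.13 (2.12), Arhgap45 2.55 and 0.50 (2.05), Fgf13 0.44 and -1.34 (1.78), Paqr5 2.77 and 1.03 (1.74) and Pim1 1.91 and 0.36 (1.55). Fitted on single arrays with mice as a random block, the adjusted p of Arhgap45 was 0.928 at the same difference of 2.05. The remaining 3 named genes did not pass: Pdzph1 (-2.36 and -0.53), Gzmb (-2.73 and -0.94) and Tmprss4 (0.32 and 1.53).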

How the results depend on the processing

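The counts of called genes in WT (2403, with 1434 higher and 969 lower) stayed within 1.5 times under the fit of the 4 WT mice alone, without trend and robust, under both filters on dim probes, both scalings and the mean of all probes. They were 4675 (2413 and 2262) with all arrays and the mouse as a random block, 7098 (3351 and 3747) with arrays as independent samples, 617 (421 and 196) without mice 1 and 5, and 1178 (751 and 427) with a 2-fold minimum. Leaving out 1 mouse gave 1077 to 2749 called, 725 to 1614 higher and 352 to 1135 lower. For KO (2262) the counts were 4628 with the random block, 6704 with independent arrays and 1100 with the 2-fold minimum, and 936 to 2687 without 1 mouse. The difference between WT and KO (11) gave 454 with the random block, 1837 with independent arrays, 31 over probes above the 50th percentile, 49 without mice 1 and 5, 10 to 117 without 1 mouse, and 0 by limma with neither trend nor robust, against 1126 genes at an unadjusted p under 0.05 in the fit reported. Hes1 reversed, from -0.20 to 0.99 with the mean of its probes. Of 180 named called genes, 77 kept the call without any 1 mouse and 71 without mice 1 and 5; 177 kept it with the random block and 0 reversed. The cause of these changes was not tested.

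The replicate number of an array within its mouse (1 to 3) is shared by the mice but did not pair them. It is not the label number that separates the populations, which was not entered in any fit. Deviations of arrays of the same replicate number correlated with a median r of 0.043 (-0.073 to 0.152), against -0.016 for other replicate numbers. With the replicate number as a block beside the random mouse block, 4543 genes were called in WT (2346 higher, 2197 lower). The counts were 4514 in KO and 402 for the difference between them.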
